A study of Mus musculus with 6 samples.

Results

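Most of the genes described here encode the extracellular matrix, the enzymes that process it, and the actin and filament cytoskeleton of fibroblasts. They are 41 named genes of the 21887 protein-coding genes on the 21 chromosomes of the RefSeq table, taken as a fixed list, and all 41 were found there. The cell surface genes Cd44, Pdgfra, Pdgfrb and Thy1 were set apart as a group by hand. Lgals1 and S100a6, which are not filament genes, were grouped with Vim by hand. DNA ends were mapped by BrITL, in which the ends of broken DNA are labelled with a biotinylated nucleotide, pulled down with streptavidin and sequenced. All 6 samples were mouse embryonic fibroblasts with 1 intact copy of Atr (ATR+/-), immortalised by passage and expressing the survival protein Bcl-xL, so the vehicle samples carry these changes too. The DMSO group had 18 h of vehicle, and the treated group had 1 µM ATR-45 together with 0.2 µM aphidicolin for 18 h. ATR-45 blocks ATR, the kinase that guards stalled replication forks, and aphidicolin slows the polymerases that copy DNA. Each group had 2 pull-down samples and 1 input sample, which the files give as 1 pooled peak list per group. No value below therefore has a replicate error, no test between groups was possible, and each result describes 2 lists. More broken cells and more breaks per cell cannot be told apart in such a list, and the fibroblast label was not checked by expression, since no RNA was measured.

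Fibroblasts secrete fibrillar collagens and fibronectin, cross-link them with lysyl oxidases, and remodel them with matrix metalloproteinases that tissue inhibitors (TIMPs) hold in check. They pull on this matrix through stress fibres, which are bundles of actin filaments decorated with tropomyosin, caldesmon, calponin and alpha-actinin and anchored at focal adhesions by vinculin and zyxin. Cultured fibroblasts transcribe many of these genes strongly, partly through serum response factor (SRF), which binds CArG boxes, and through YAP, which acts with TEAD factors on genes such as Ccn1 and Ccn2.

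Vehicle peaks stood at 23 of the 41 genes, and treated peaks stood at 2, Actb and Zyx. A gene counted where the summit of a peak, its highest point, lay inside the gene or within 1 kb of either end. The 23 genes were 56.1% of the list, beside 23.8% of all protein-coding genes in the DMSO list. In the treated list the 2 genes were 4.88%, beside 1.16% of all protein-coding genes. The lists differ in size (6444 DMSO and 491 treated peaks) and in their lowest −log10 q (18.5 and 3.38), so the 2 counts do not measure a change. The list of genes was drawn up with results of these data known, so the count is a description and carries no test. The share was set beside genes of like length as well. Among members under 10 kb, 7 of 13 held a DMSO summit, beside 15.6% of coding genes of that length. From 10 to 50 kb it was 9 of 19, beside 27.1%. Over 50 kb it was 7 of 9, beside 31.1%.

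The choice of window and of peaks moved these counts. With gene bodies alone, 18 of 41 members held a DMSO summit (13.2% of coding genes). A flank of 5 kb gave 26 members (26.6%), a flank of 10 kb gave 26 (29.9%), and any overlap of the whole peak with the 1 kb window gave 26 (25.1%). Peaks whose fold reached the list's median left 17 members (14.3%), and a −log10 q of at least 30 left 17 (11.7%). In the treated list, Actb and Zyx were both counted with gene bodies alone (0.758% of coding genes), a 5 kb flank (1.4%), a 10 kb flank (1.78%), any overlap (1.18%) and a −log10 q of at least 5 (0.539%). Peaks whose fold reached the treated median left Zyx alone (0.649%).

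By role, a DMSO summit stood at 5 of 11 matrix proteins, 2 of 6 matrix enzymes and inhibitors, both YAP target genes, 9 of 15 actin cytoskeleton genes, 3 of 3 filament and other cytoplasmic genes, and 2 of 4 cell surface genes. Each group is too small for its share to be ranked against another.

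**Figure D1:**
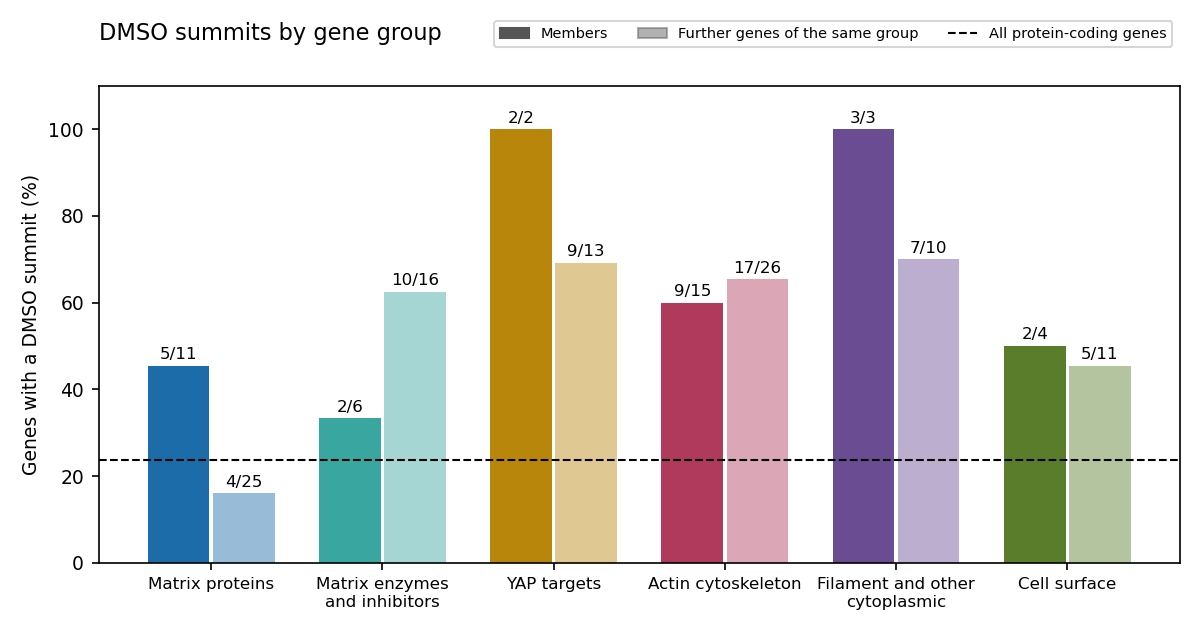
Percent of genes with a DMSO summit in the gene or within 1 kb, for the members of each group (full colour) and for further genes of the same groups (pale), with the number of genes above each bar and the share of all protein-coding genes (23.8%) as a dashed line. Every member group stands above the line, and the further matrix proteins (4 of 25) stand below it. The further YAP and actin genes include regulators such as Yap1, Tead1 and Srf. The exact intervals of several groups, on both sides and with the further matrix proteins among them, take in the line.

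The peaks were broad, and most of those at genes with a known start covered it. The RefSeq promoter table gives strand for 28 of the 41 genes, with 30 promoter windows that run from 250 bases before a start to 50 after it. Of these 30 windows, 18 (60.0%) lay whole under a DMSO peak, beside 21.7% of the 21263 windows of all protein-coding genes. The strand and promoter of Actb, Ccn2, Col1a1, Col5a2, Fn1, Lgals1, Lox, Loxl2, Mmp2, Pdgfrb, Tagln, Thbs1 and Thy1 were not used here. A start was covered by 16 of the 21 DMSO peaks at members with known strand. These 16 reached a median of 1691 bp before it and 2490.5 bp after it. The part after the start was the longer in 13 of these 16 peaks. Neither the share of peaks that covered a start nor their reach was measured over all coding genes. Whether either is particular to members was not tested. The peak at Ccn1 reached farthest before the start, by 5247 bp, and the peak at Sparc least, by 493 bp.

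Promoters of 5 genes are shown because they differ in peaks. Zyx has a peak in each list, Vim, Ccn1 and Vcl have a DMSO peak alone, and Myl9 has none within 1 kb. They are RefSeq sequences of GRCm38.p6, read 5′ to 3′ on the strand of the gene, at chr6:42349578-42349877 (Zyx, plus strand), chr2:13574061-13574360 (Vim, plus strand), chr3:145649936-145650235 (Ccn1, minus strand), chr14:20929148-20929447 (Vcl, plus strand) and chr2:156775214-156775513 (Myl9, plus strand). Capitals mark matches on either strand to the CArG box bound by SRF, to GGAATG (bound by TEAD factors, read as CATTCC on the other strand), to TGANTCA (bound by AP-1) and to TATAAA (the TATA box).
Zyx: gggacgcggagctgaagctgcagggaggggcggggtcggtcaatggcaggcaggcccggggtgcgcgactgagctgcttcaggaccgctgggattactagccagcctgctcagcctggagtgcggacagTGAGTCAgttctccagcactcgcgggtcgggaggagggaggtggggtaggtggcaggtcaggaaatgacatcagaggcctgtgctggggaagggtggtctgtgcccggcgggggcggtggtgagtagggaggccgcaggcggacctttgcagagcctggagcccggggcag
Vim: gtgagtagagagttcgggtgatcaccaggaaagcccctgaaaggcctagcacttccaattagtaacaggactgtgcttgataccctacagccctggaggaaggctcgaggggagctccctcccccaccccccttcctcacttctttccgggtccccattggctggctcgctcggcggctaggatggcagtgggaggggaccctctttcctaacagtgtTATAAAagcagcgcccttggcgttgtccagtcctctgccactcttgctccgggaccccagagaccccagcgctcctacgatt
Ccn1: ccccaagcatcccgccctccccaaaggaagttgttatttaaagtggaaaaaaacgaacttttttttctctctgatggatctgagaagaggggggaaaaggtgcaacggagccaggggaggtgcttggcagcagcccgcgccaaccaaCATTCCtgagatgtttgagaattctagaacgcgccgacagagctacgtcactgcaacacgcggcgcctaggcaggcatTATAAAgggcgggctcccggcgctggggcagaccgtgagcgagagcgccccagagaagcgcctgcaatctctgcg
Vcl: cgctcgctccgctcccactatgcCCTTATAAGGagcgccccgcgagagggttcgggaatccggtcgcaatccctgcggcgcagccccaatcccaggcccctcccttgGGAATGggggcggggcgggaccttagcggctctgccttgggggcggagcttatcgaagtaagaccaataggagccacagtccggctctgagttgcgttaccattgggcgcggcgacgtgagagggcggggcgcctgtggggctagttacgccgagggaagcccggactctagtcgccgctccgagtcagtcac
Myl9: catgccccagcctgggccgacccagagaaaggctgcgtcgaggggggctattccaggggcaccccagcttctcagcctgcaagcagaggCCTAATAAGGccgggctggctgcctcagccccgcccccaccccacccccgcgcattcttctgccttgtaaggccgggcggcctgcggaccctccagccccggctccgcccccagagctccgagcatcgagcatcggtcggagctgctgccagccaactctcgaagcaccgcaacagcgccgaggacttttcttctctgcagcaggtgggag

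Counting from the start, where the first transcribed base is 0, a TGANTCA match begins at -121 in Zyx, and TATAAA begins at -32 in Vim and at -25 in Ccn1. A match to GGAATG begins at -103 in Ccn1 and at -143 in Vcl. The CArG box of Vcl begins at -227, and that of Myl9, which has no DMSO peak, at -161. No marked match overlaps another in these 5 windows. Over all 30 member windows, 4 held a CArG box (Actg1, Cnn2, Vcl and Myl9), beside 1.52% of all coding windows. GGAATG was held by 8 (13.6% of all windows), TGANTCA by 3 (6.99%) and TATAAA by 5 (12.6%). The GC box GGGCGG, bound by Sp1 and read as CCGCCC on the other strand, is not marked in the sequences, and 19 of the 30 windows held it (46.2% of all windows). It may overlap other matches. It was found in 14 of 18 member windows under a DMSO peak (77.8%) and in 5 of 12 not under one (41.7%), and in 75.7% of all coding windows under a DMSO peak. Median GC content was 64.2% in the member windows under a peak and 55.5% in the others, beside 64.3% in all coding windows under a peak and 56.3% in all windows. The part of base composition in the motif counts was not tested. The other motifs occurred with and without a peak. A CArG box was found in 3 of 18 windows under a DMSO peak and in 1 of 12 not under one, and GGAATG in 5 of 18 and 3 of 12. Over all coding windows under a DMSO peak, the shares were 1.43% for the CArG box and 10.7% for GGAATG. Of the CArG windows under a peak, those of Actg1 and Cnn2 belong to members with no DMSO summit within 1 kb. A match is a description of the sequence and not a measured binding site.

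The highest DMSO peaks of members were at Zyx, Actb, Lgals1 and Vim, of which Zyx and Actb belong to the actin group. The median fold of the actin group's 14 peaks was 12.8, beside 13.3 for all member peaks. Zyx, which encodes the focal adhesion and stress fibre protein zyxin, had the highest fold of the members in the DMSO list, 25.6. The fold is the authors' enrichment of pull-down over background at the summit. The Zyx peak ranked 21 of 6444 and spanned 42347738 to 42352697 on chromosome 6 (mm10, as are all positions below), with its summit 193 bp inside the gene. Against the start of the promoter table, which lies farther into the gene, this summit is at -124 bp. Actb, which encodes beta-actin of the cytoplasm, followed with a fold of 24.9 (rank 28, chromosome 5, 142903774 to 142909051). Its summit lay inside the gene, 1547 bp from the end with the higher coordinate, and the peak covered 86.4% of the gene. Lgals1, which encodes the carbohydrate-binding protein galectin-1, had a fold of 24.1 (rank 34, chromosome 15, 78924408 to 78932447). Vim, which encodes vimentin, had a fold of 23.1 (rank 56, chromosome 2, 13571435 to 13576861), with its summit 614 bp outside the gene, before the start. These 4 members thus ranked from 21 to 56 of the 6444 DMSO peaks.

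The files allow the number of pull-down fragments at each summit to be recovered, which shows how much DNA a fold rests on. At the DMSO summits of members it ran from 37 fragments (Fbn1) to 113 (Actb), with a median of 56, beside a median of 48 for all DMSO summits at coding genes. Actb had 113 fragments (95% Poisson interval 93.1 to 135.9), Zyx 104 (84.98 to 126.01), Vim 103 (84.1 to 124.9) and Lgals1 98 (79.6 to 119.4). These 4 intervals overlap, so the order of the 4 is not resolved by counting. Fbn1 with 37 fragments (26.05 to 51.0) lies below all 4. The intervals cover counting error alone and leave out the spread between the pooled samples. The background term, which the caller takes from the input and does not let fall below the genome level, stood at that level for 19 of 28 member peaks (67.9%, beside 78.6% at all coding genes). The highest, at Col5a1, was 1.73 times the genome level. All other member peaks in the DMSO list stood over less background than that.

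**Figure D2:**
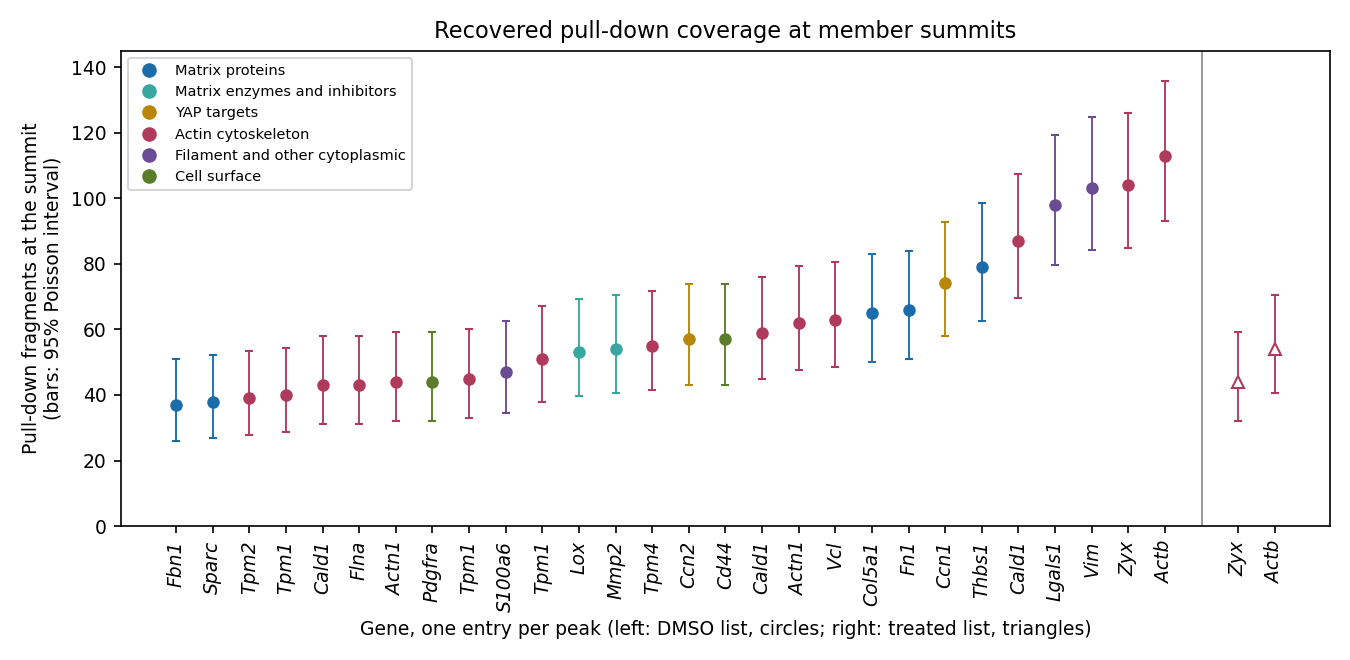
Pull-down fragments at the summit of each member peak, with 95% Poisson intervals, for the DMSO list (circles, in rising order) and the treated list (triangles), coloured by gene group. The DMSO summits rise from 37 fragments at Fbn1 to 113 at Actb, and the treated summits of Zyx and Actb have 44 and 54.

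Among matrix proteins the peaks were at 5 of 11 genes and of unequal height. Thbs1, which encodes the matricellular glycoprotein thrombospondin-1, had a fold of 19.5 (rank 195, chromosome 2, 118109156 to 118114865), with its summit 519 bp outside the gene. An end of the non-coding gene Gm13986 lay nearer to this summit, at 155 bp. Fn1, which encodes fibronectin, had a fold of 16.3 (rank 628, chromosome 1, 71651327 to 71654752) with its summit 244 bp inside one end. Col5a1, which encodes a chain of collagen V that helps set fibril diameter, had a fold of 10.7 and a summit 523 bp before its start. Sparc, which encodes a collagen-binding matricellular protein, had a fold of 9.53 and a summit 1319 bp after its start. Fbn1, which encodes the microfibril protein fibrillin-1, had a fold of 9.29, with its summit 345 bp after the start. By fold, Thbs1 and Fn1 were in the upper part of the DMSO list and Col5a1, Sparc and Fbn1 in the lower, since the median fold of the list was 10.99. By fragments, Col5a1 with 65 stood close to Fn1 with 66, over a background 1.73 times the genome level. Sparc had 38 fragments and Fbn1 37. The remaining 6 had no summit within 1 kb, among them Col1a1 and Col1a2, which encode the chains of collagen I, and Col3a1, which encodes collagen III.

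Of the matrix enzymes and their inhibitors, Mmp2 and Lox had a DMSO peak. Mmp2, which encodes gelatinase A, had a fold of 13.4 (chromosome 8, 92845603 to 92850854). Its summit lay inside the gene, 6154 bp from the nearer end, and an end of the non-coding gene Gm45472 was nearer, at 5543 bp. Lox, which encodes the oxidase that cross-links collagen and elastin, had a fold of 13.2 (chromosome 18, 52527761 to 52531263), with its summit 2 bp inside one end. Loxl2, a relative of Lox, the inhibitor genes Timp1 and Timp3 and the membrane-bound metalloproteinase gene Mmp14 had none.

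Both YAP target genes held a peak. Ccn1, which encodes a secreted matricellular protein that binds integrins, had a fold of 18.3 (rank 302, chromosome 3, 145645085 to 145655232). This peak was 10148 bp wide, the widest of the members' peaks, and covered the whole gene. Its summit lay 396 bp before the start, and an end of the non-coding gene Gm17501 lay 304 bp away. Ccn2, which encodes connective tissue growth factor, had a fold of 14.1 (chromosome 10, 24594196 to 24597598) with its summit 362 bp inside the gene and 1 bp from an end of the non-coding gene Gm15270. Peaks at Ccn1, Ccn2, Thbs1 and Mmp2 therefore cannot be assigned to the coding gene alone.

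In the actin group 9 of 15 genes held 14 summits. Cald1, which encodes the tropomyosin- and actin-binding protein caldesmon, held 3. The highest (fold 17.5, rank 446) lay 11593 bp into the gene, the next (fold 13.4) lay 94 bp before its start, and the lowest (fold 8.91) lay 110405 bp into the gene. The promoter table gives Cald1 2 starts, and the lowest peak covered the second, with its summit 544 bp before that start. An end of the non-coding gene Gm38787 lay 3395 bp from this summit, nearer than either end of Cald1. Tpm1, which encodes a tropomyosin with many isoforms, also held 3, with folds of 12.7, 11.2 and 10.02 at 682, 5640 and 24095 bp from its start. The first pair of Tpm1 peaks was parted by 177 bp, and whether these are separate sites was not tested. Actn1, which encodes the cross-linker alpha-actinin-1, held 2, with a fold of 15.4 at 340 bp and 10.99 at 39980 bp from the start. These 3 genes held more than 1 summit, as did 2.29% of all coding genes. Single peaks stood at Tpm4 (fold 13.7), at Vcl, which encodes vinculin (fold 12.9), at Tpm2 (fold 9.77) and at Flna, which encodes the actin cross-linker filamin A (fold 8.91). Tpm4 and Tpm2, like Tpm1, encode tropomyosins that coat actin filaments. The summits were 845 and 333 bp after the start at Tpm4 and Tpm2, 547 bp before it at Vcl, and 5431 bp after it at Flna. The table's start for Flna lies farther inside the gene, and the summit lay 2111 bp after that one. Flna is on the X chromosome, as is Timp1, which had no peak.

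The rest of the members with a peak were S100a6, Cd44 and Pdgfra. S100a6, which encodes a small calcium-binding protein, had a fold of 11.7 and a peak that covered the whole gene, whose length is 1521 bp. Cd44, which encodes the receptor for the matrix sugar hyaluronan, had a fold of 13.8 at 329 bp after its start. Pdgfra, which encodes a receptor for platelet-derived growth factor, had a fold of 10.99 at 4324 bp after its start. Its paralogue Pdgfrb and the surface glycoprotein gene Thy1 had none.

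**Figure D3:**
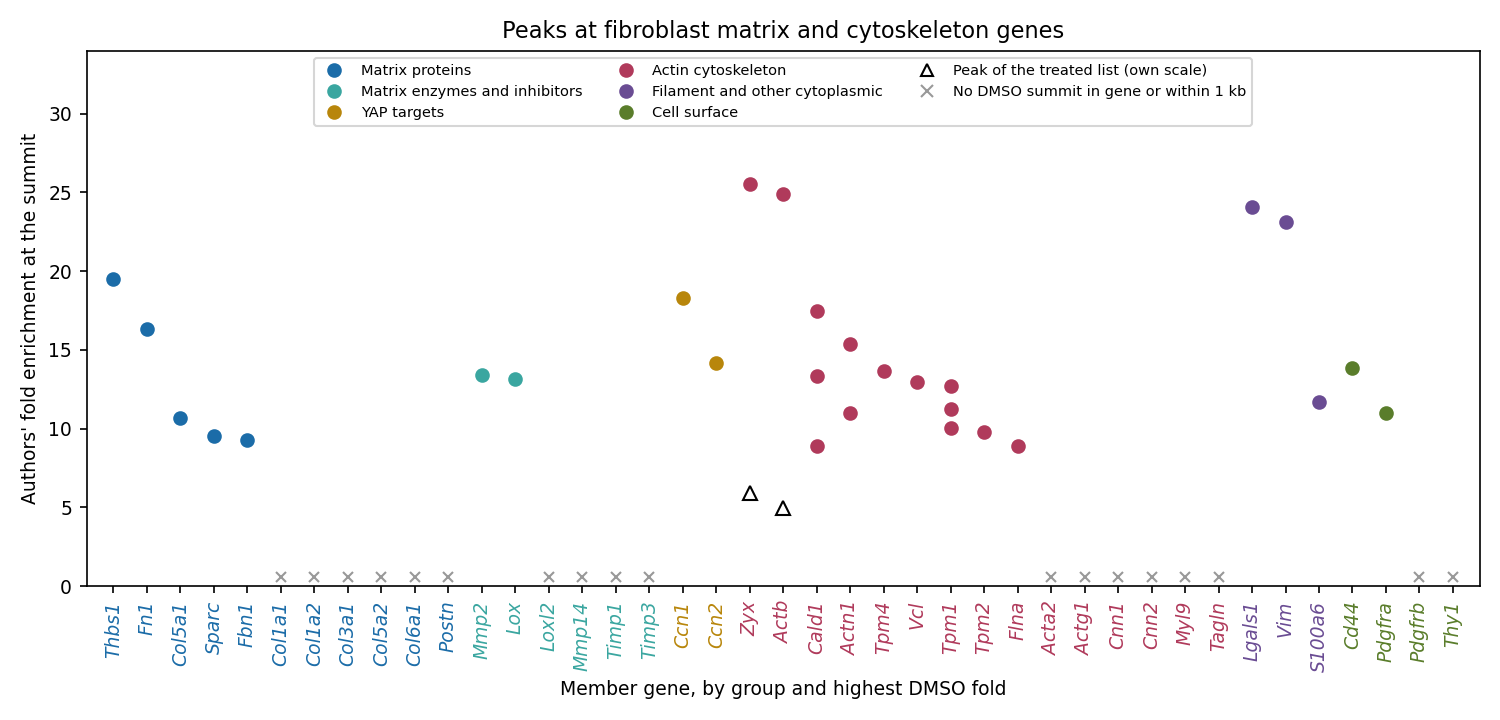
The authors' fold at the summit (y axis) for every peak in or within 1 kb of each of the 41 genes, grouped by role and ordered by the highest DMSO fold, with DMSO peaks as circles, treated peaks as triangles on their own list's scale, and crosses for genes with no DMSO summit. In the DMSO list the peaks of Zyx, Actb, Lgals1 and Vim stand above 23 and all other member peaks lie between 8.91 and 19.5, and the treated peaks of Actb and Zyx are at 4.95 and 5.89.

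Taken over the 28 DMSO summits of members, the median fold was 13.3, beside 11.5 over all 5841 pairs of a DMSO summit and a coding gene. The 95% order-statistic interval of the members' median, 10.99 to 15.4, takes in 11.5. In 19 of 28 the fold was at or above the list's median of 10.99, and 9 lay under it. Over the pairs at all coding genes, 3337 of 5841 were at or above that median. The members' peaks were 2127 to 10148 bp wide with a median of 3745.5 bp, beside 2921 bp over the pairs at all coding genes. Fold and width follow from the same coverage, so they are not separate evidence of strength.

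**Figure D4:**
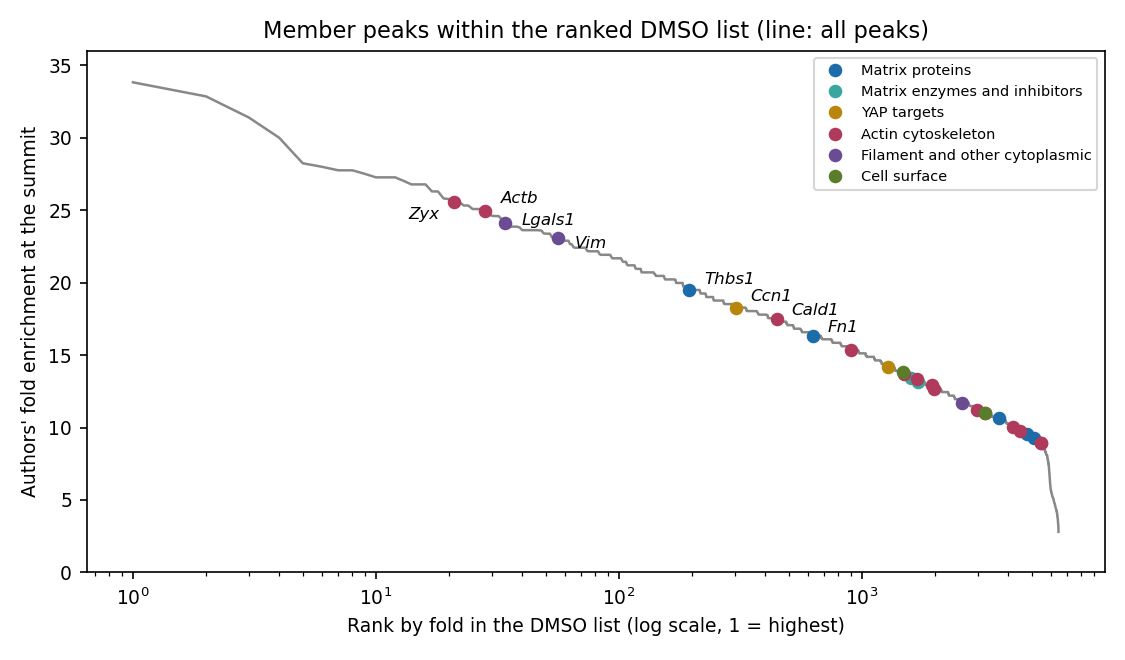
The authors' fold (y axis) against rank in the DMSO list (x axis, log scale, 1 the highest) for all 6444 peaks (line) and for the 28 member peaks (points, coloured by group, some names given). Member peaks run from rank 21 (Zyx) to rank 5486 (Flna and the lowest Cald1 peak).

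Summits of members lay at a gene end no more often than those of all coding genes. Of the 28 summits, 18 (64.3%, exact Clopper-Pearson interval 44.1 to 81.4%) lay within 1 kb of an end of their own gene, beside 75.8% at all coding genes, a value inside that interval. Of the 28 summits 22 (78.6%) were inside the gene body, beside 55.9% at all coding genes. Where strand was known, 13 summits were within 1 kb of an end. Of these, 12 were at the start alone, 0 at the other end alone, and 1, at S100a6, was within 1 kb of both. Over all coding genes 3414 were at the start alone and 184 at the other end alone, so 94.9% of summits at 1 end were at the start. Measured from the ends in the gene table, 8 of the 13 summits near a start lay after it and 5 before it (Ccn1, Cald1, Vcl, Col5a1 and Vim). Over all coding genes 1489 such summits lay after the start and 1996 before it. The promoter table places some starts elsewhere, and against those the Zyx summit (-124 bp) and the lowest Cald1 summit (-544 bp from the second start) also lay before a start. In no member peak did an end of another protein-coding gene lie as near to the summit as an end of the member.

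**Figure D5:**
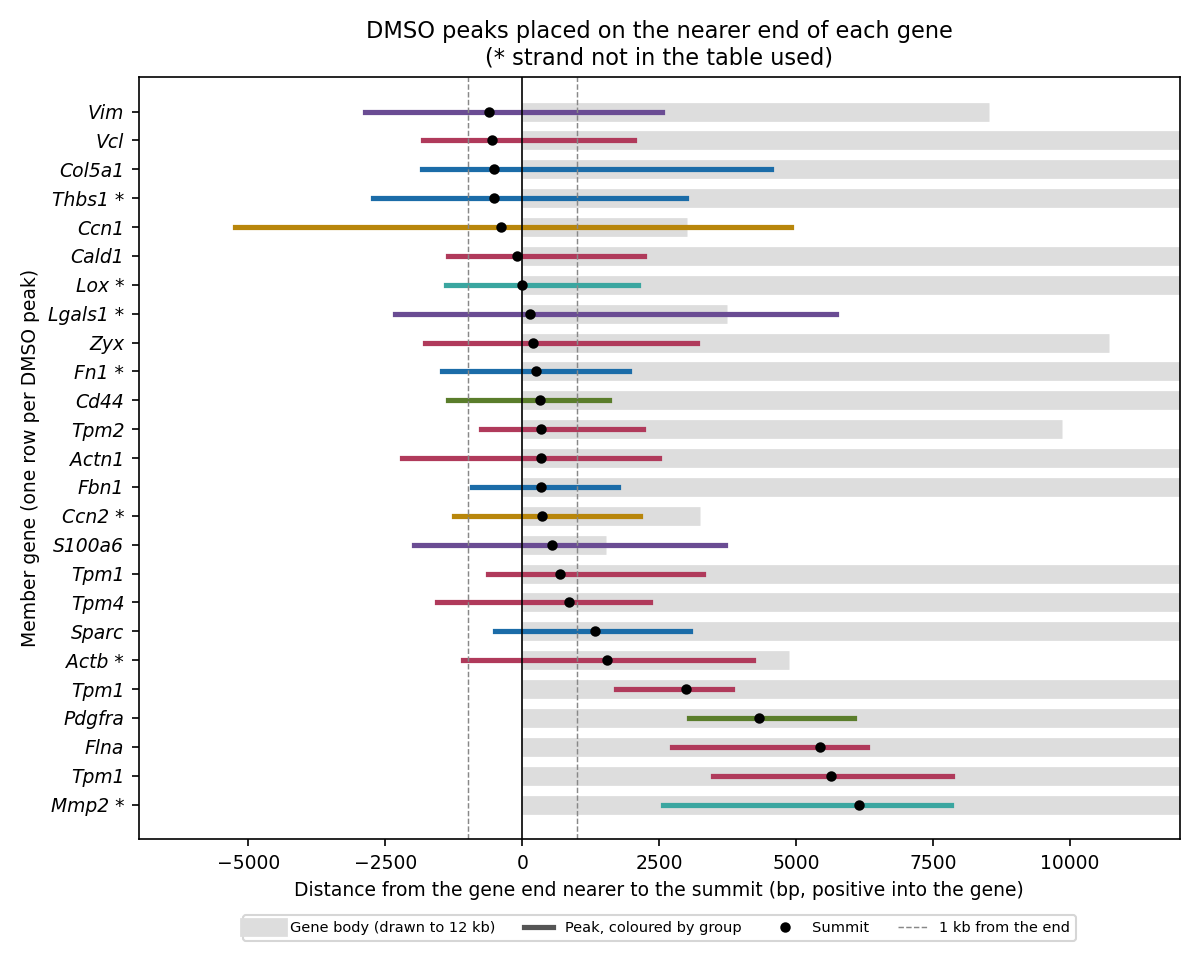
DMSO peaks of members (coloured lines) with their summits (black points), placed on the end of the gene nearer to the summit at 0, in bp, with positive values running into the gene (grey). The 25 peaks whose summits lay up to 6154 bp from an end are drawn, 18 of their summits fall between the dashed lines 1 kb on each side of the end, and most peaks run across the end on both sides.

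No DMSO summit lay within 1 kb of the other 18 members. Vim, with its summit 614 bp outside the gene, was the outermost member inside the window. Actg1, which encodes gamma-actin, was the nearest outside it, with a summit 1223 bp before its start (fold 15.1). That peak reached the gene and its promoter window. Cnn2, which encodes a calponin, followed with a summit 1323 bp beyond its other end (fold 8.50), 270 bp from an end of the neighbouring gene Abca7. Its promoter window lay whole under another DMSO peak (fold 13.2, chromosome 10, 79984224 to 79988770), whose summit was 3517 bp before the start. The nearest summit to Col1a1 lay 2218 bp beyond its lower end (fold 12.9), in a peak that reached the gene. The next were 16130 bp from Col1a2 (fold 11.1) and 28395 bp from Cnn1 (fold 13.2), the second lying 569 bp from an end of Zfp653. Summits for the other 13 were 36806 bp (Loxl2) to 343627 bp (Postn) away. They include Acta2, which encodes smooth muscle alpha-actin (295430 bp), Tagln, which encodes transgelin (184643 bp), and Myl9, which encodes a regulatory myosin light chain (54685 bp). Members without a summit had a median length of 16.0 kb and those with one 25.9 kb. The median was 25.1 kb for all coding genes with a DMSO summit and 17.2 kb for all coding genes.

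The treated list held 1 peak each at Actb and Zyx, and both lay whole inside the DMSO peak of the gene. At Zyx the treated peak spanned 42349540 to 42349921 on chromosome 6, with a fold of 5.89 (rank 93 of 491), a −log10 q of 6.25 and 44 fragments (95% Poisson interval 31.97 to 59.1). Its summit was 13 bp from the DMSO summit. At Actb it spanned 142906268 to 142906811 on chromosome 5, with a fold of 4.95 (rank 345), a −log10 q of 5.77 and 54 fragments (40.6 to 70.5). Its summit was 140 bp from the DMSO summit. The treated peaks were 382 and 544 bp wide, and the DMSO peaks of these genes were 4960 and 5278 bp wide. The genome background of the pull-down was 5.14 fragments in the treated list and 2.88 in the DMSO list, so a site needed more fragments in the treated pull-down to reach the same fold. Of the 28 DMSO peaks of members 2 met a treated peak, beside 2.81% of DMSO peaks at coding genes and 2.9% of all DMSO peaks. Lgals1 and Vim, whose DMSO folds were close to those of Zyx and Actb, had no treated peak. The nearest treated summits were 1678651 and 1628359 bp away. Absence from the treated list does not show that ends were absent there, since no coverage outside the peaks was used here.

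DMSO peaks also stood at many of 101 further genes listed under the same 6 groups. These genes, too, were listed with earlier results of these data known. The YAP group here also holds regulators such as Yap1 and the TEAD factor gene Tead1, and the actin group holds Srf. The groups of the 2 lists are therefore not alike in make-up. A DMSO summit stood at 52 of the 101 (51.5%, beside 23.8% of all coding genes), and 0 held a treated summit (exact Clopper-Pearson upper limit 3.59%), beside 1.16% of all coding genes. Their median length was 38664 bp, beside 17169 bp for all coding genes. Under 10 kb, 10 of 16 held a DMSO summit, beside 15.6% of coding genes of that length. From 10 to 50 kb it was 22 of 40, beside 27.1%, and over 50 kb 20 of 45, beside 31.1%. By group it was 17 of 26 actin genes, 7 of 10 filament and other cytoplasmic genes, 9 of 13 YAP genes, 10 of 16 matrix enzymes and collagen-processing proteins, 5 of 11 surface genes and 4 of 25 matrix proteins. Among matrix proteins the background of 23.8% lay inside the exact Clopper-Pearson interval of 4.54 to 36.1%. Those with a summit made up 16.0%, under that background. They were Lamc1, which encodes a laminin chain (fold 15.4), Hspg2, which encodes perlecan (highest of 4 folds 14.1), Vcan, which encodes versican (12.7), and Fbln2, which encodes fibulin-2 (10.99). The highest folds of the actin genes were at Myh10 (19.5) and Myh9 (17.5), which encode non-muscle myosin II heavy chains, and at Pdlim7, which encodes a LIM-domain protein of stress fibres (18.3). Of the filament group they were at Lmna, which encodes lamins A and C (21.2), Plec, which encodes the cytolinker plectin (19.5), and S100a10 (16.1). Of the enzyme group they were at Timp2, an inhibitor of metalloproteinases (19.5), and P4hb, a subunit of the collagen prolyl hydroxylase (18.03). The Timp2 summit lay nearer to an end of another coding gene, Cep295nl, at 5132 bp. Of the YAP group they were at Crim1 (16.8), Amotl2 (15.6) and Myof (13.9), and of the surface group at the receptor genes Tgfbr1 (15.5), Itgav (12.9) and Ddr2 (9.77). The highest summits of Plec and Myof lay nearer to an end of a non-coding gene, Mir1942 at 19239 bp and Gm52396 at 5468 bp. The median fold of this second list was 12.5 over 74 summits, and 29 of its summits with known strand were at the start alone, against 0 at the other end alone.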

How the data were processed

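BrITL libraries of 6 samples are represented by 2 peak lists, pooled by group as the peak names show. Per the submitters' processing notes, the authors used MACS2 2.1.0, with Picard 1.141, STAR 2.5.2a, bcl2fastq 2.17.1.14 and SAMtools 0.1.19, and the build mm10. Their roles, settings and the rule for keeping peaks are not given in the sources used here. The deposited lists give each peak a score, which equals the whole part of a multiple of −log10 p, a fold (ratio) at the summit, and −log10 p and −log10 q values, and these values are the authors'.

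Gene positions and promoters came from RefSeq (GRCm38.p6, the assembly of mm10). Summits were assigned to genes with a 1 kb flank, and peaks met where they shared at least 1 bp. Fragments were recovered by inverting the caller's formulas , in which 1 is added to pileup and background before the fold is taken and the p-value is Poisson. A solution counted as whole within 0.02 of a fragment, which held for 100% of peaks in each list. The code was tested on simulated peaks and planted summits. The depth of each sample is unknown, and every peak had at least 35 pull-down fragments. Each member with a summit is named, as are the 5 members nearest to one and up to 3 of the highest folds per group of the second list, except 1 gene that is not reported here. Members and lists were chosen with earlier results of these data known. Python 3.11.15, NumPy 2.4.6, SciPy 1.17.1, pandas 2.3.3 and matplotlib 3.10.9 were used. Alternatives varied the window, the peak threshold, the overlap and the distance to an end.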

Additional observations from a re-analysis of the deposited data

How the results depend on the processing

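No paired analysis was possible because both replicates of a group were pooled into 1 list, so no sample could be left out either. Of 29 alternatives, 27 kept counts within 1.5 times, and shares and medians within their intervals. The 2 that did not were the treated count where a peak's fold had to reach the list's median, which left 1 of 41 members (Zyx), and the share of summits at a gene end, which was 39.3% (11 of 28) within 500 bp. Members with a DMSO summit ranged from 17 to 26 of 41. The second list ranged from 35 to 58 of 101. The pair Actb and Zyx met a treated peak under each of the 3 overlap rules. These rules had little room to differ, since both treated peaks lay whole inside the DMSO peak of the gene. Leaving out peaks nearer to another coding gene removed none of the 28 summits, so that alternative could not move the median fold. The lowest member values rest on 37 fragments, and sites too weak to enter a list were not seen.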
